A study of Homo sapiens with 2 samples.

Results

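Box C/D small nucleolar RNAs are short stable RNAs of the nucleolus, whose genes carry symbols that begin with SNORD. The genes described here are those for which the array has a probe with exactly 1 symbol in the platform annotation and that symbol begins with SNORD. They were 69 genes outside the imprinted repeat clusters, called non-imprinted here, and 46 copies from those clusters. Together they made up 0.626% of the 18377 genes with a named probe, and each had 1 probe. RefSeq types 112 of them as snoRNA and 3 (SNORD13P1, SNORD13P2 and SNORD13P3) as pseudogenes, and it lists 362 SNORD genes in all. The 46 copies were 2 of SNORD113 and 4 of SNORD114 on chromosome 14, and 20 of SNORD115 and 20 of SNORD116 on chromosome 15. A further 49 probes name a SNORD gene together with other genes and were not members.

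The samples were 2 cultures of K562, a human leukaemia line driven by the BCR-ABL1 kinase, and both received the kinase inhibitor imatinib (2 µM, 6 h), per the labels' protocols. The culture with EPO had erythropoietin, the hormone of red cell formation, in its medium. The label of the other names no EPO, and it is read as the culture without EPO that the growth protocol mentions. RNA came from a kit that also keeps small RNAs, and 1 whole-transcript Affymetrix array was run per culture. Since each culture has 1 array, nothing could be tested, and a gene was called lower or higher by size alone, at a difference of at least 1 on the log2 scale (2-fold). The values are deviations of each probe from a baseline that the authors did not name, read as log2. They give no level, so neither the identity of the line nor the abundance of any SNORD RNA could be checked. RNA was taken in bulk, so a change in some cells and a change in all cells cannot be told apart. A difference is always the value with EPO minus the value without EPO.

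In the nucleolus, most box C/D RNAs pair with ribosomal RNA and guide 2'-O-methylation at the paired base, while a few, such as U3, U8, U13 and U14, act in the cleavage or modification that frees the ribosomal RNAs from their precursor. The short C and D boxes bind SNU13, NOP56, NOP58 and the methyltransferase fibrillarin (FBL). Most human box C/D RNAs have no promoter of their own. They lie in introns of host genes, many of which encode ribosomal proteins or translation factors, and are trimmed out of the excised intron. The repeat copies are transcribed from 1 parental chromosome only, SNORD115 and SNORD116 within SNHG14 in the Prader-Willi region, and SNORD113 and SNORD114 within MEG8.

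Many of the non-imprinted SNORD genes were lower on the array with EPO. Of these 69 genes, 20 (29%) were at least 2-fold lower and 2 (2.90%) at least 2-fold higher, where 0.898% of all 18377 genes were lower and 6.19% were higher by the same rule. When differences were set against the median of silent families (such as olfactory receptor genes), the counts were 16 lower and 5 higher, where 0.55% of all genes were lower and 15.3% higher. Against the median of cellular machinery genes they were 31 lower and 1 higher, where 5.68% of all genes were lower and 0.756% higher. The median difference was -0.43, against -0.047 for all genes, and 49 of the 69 (71.0%) lay below 0, where 54.6% of all genes did. That count of 49 was 39 relative to silent families, 61 relative to machinery genes and 48 relative to the median of all genes. The share of all genes below 0 was not counted under these scalings. The median of the 69 genes stayed below 0 under the 3 other scalings tried. These 20 genes made up 12.1% of the 165 genes that were 2-fold lower. Of the 50 lowest genes 8 were SNORD genes, and of the 100 lowest 16 were. In contrast, 0 of the 46 imprinted copies were past 2-fold in either direction. Their median was -0.039 as deposited and 0.0077 relative to the median of all genes, so the direction of that median depends on the scaling.

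**Figure D1:**
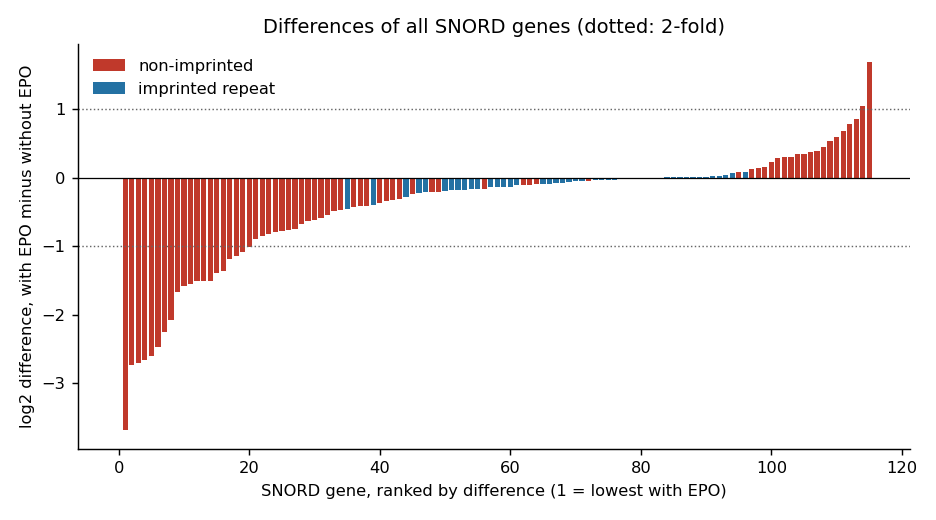
Log2 difference (with EPO minus without EPO, 1 array each) of all SNORD genes, ranked from the lowest, with non-imprinted genes in red, imprinted repeat copies in blue and dotted lines at 2-fold. The bars past 2-fold are all red, 20 below and 2 above, and the blue bars stay between -0.45 and 0.092.

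SNORD12C, which guides methylation of the large-subunit ribosomal RNA and lies in the non-coding RNA ZFAS1, stood at -1.39 with EPO and 2.30 without EPO. Its difference of -3.69 (12.9-fold lower) was the lowest of all 18377 genes. SNORD75, a large-subunit guide from GAS5, stood at -0.79 and 1.94, a difference of -2.73 (6.63-fold lower). SNORD54, from the ribosomal protein gene RPS20, stood at -0.70 and 2.01, a difference of -2.70 (6.51-fold lower). These 3 genes were below the baseline with EPO and far above it without EPO. SNORD50B, a large-subunit guide from SNHG5, stood at -0.83 and 1.83, a difference of -2.67 (6.35-fold lower). SNORD60, a large-subunit guide from SNHG19, stood at -0.67 and 1.93, a difference of -2.60 (6.06-fold lower). SNORD61, a small-subunit guide from RBMX, stood at -0.56 and 1.92, a difference of -2.48 (5.56-fold lower). Values of 1.83 to 2.30 without EPO thus stood against -1.39 to -0.56 with EPO in these 6 genes, which were picked for their differences.

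The other 14 genes past 2-fold lower were SNORD43 at -2.25, SNORD14E at -2.08, SNORD50A at -1.67, SNORD28 at -1.57, SNORD104 at -1.55, SNORD32A and SNORD95 at -1.51, SNORD53 at -1.505, SNORD74 at -1.396, SNORD14C at -1.36, SNORD35A at -1.19, SNORD55 at -1.14, SNORD30 at -1.08 and SNORD46 at -1.003. SNORD46 lay just inside the threshold (-0.0056 with EPO, 0.997 without EPO), and SNORD34, at -0.90, was the nearest gene outside it. Relative to the median of all genes SNORD46 was no longer past 2-fold, and relative to that of silent families SNORD35A, SNORD55, SNORD30 and SNORD46 were not.

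On the higher side, SNORD4A, a small-subunit guide from RPL23A, stood at 0.55 with EPO and -1.13 without EPO, a difference of 1.69 (3.22-fold higher). SNORD38B, a large-subunit guide, stood at 0.45 and -0.61, a difference of 1.06 (2.08-fold higher), and it was within 2-fold relative to the median of cellular machinery genes. Next came SNORD21 (0.45 and -0.41, difference 0.86), SNORD49A (0.12 and -0.67, difference 0.79), SNORD38A (0.52 and -0.16, difference 0.68) and the pseudogene SNORD13P2 (0.28 and -0.32, difference 0.60). In these 6, picked for their differences, the values with EPO ran from 0.12 to 0.55.

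**Figure D2:**
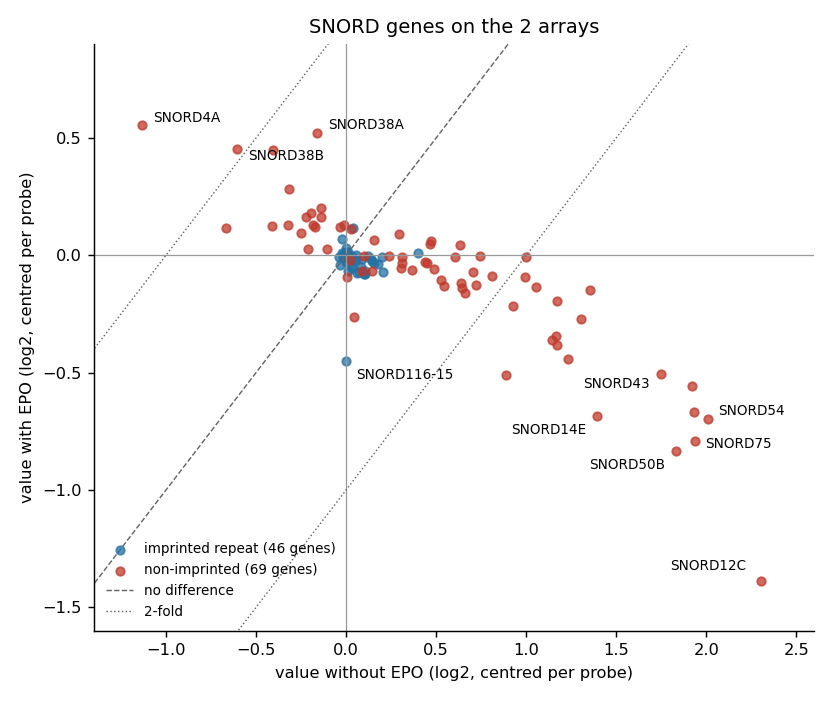
Value with EPO against value without EPO for each SNORD gene (log2, centred per probe), with red points for non-imprinted genes, blue points for imprinted copies, a dashed line of no difference and dotted lines at 2-fold. The red points run from SNORD4A at the upper left to SNORD12C at the lower right, and the blue points gather near 0, except SNORD116-15 at -0.45 with EPO.

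Among the non-imprinted genes the arrays lay on opposite sides of the baseline in 63 of 69, and the array without EPO deviated more in 59 of 69. These shares, 91.3% and 85.5%, lie near those of all genes, 83.2% and 82.6%. Values ran from -1.39 to 0.55 with EPO and from -1.13 to 2.30 without EPO. Without EPO, 16 of the 69 genes stood 1 or more above the baseline, where 108 of all 18377 genes did. With EPO 0 of the 69 did, but so did 0 of all genes, whose highest value was 0.66, so that 0 is not particular to SNORD genes. Across these 69 genes the values of the arrays had r = -0.89 and rho = -0.89, against r = -0.69 and rho = -0.74 across all genes. Genes are not replicates, and both values of a gene share its probe and its baseline, which ties them to each other. The spread over genes was also unequal in general: across all genes the standard deviation was 0.128 with EPO and 0.429 without EPO. The part of this unequal spread in the SNORD differences was not tested.

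Many SNORD genes lay below the gene that contains them. By position in RefSeq, 67 of the 69 non-imprinted genes lie inside another gene, in 41 such genes, and the exceptions are SNORD13 and SNORD32B. The strand was not read for this match. Of the 41, 25 were measured under a symbol of their own and contain 35 of the SNORD genes. The differences of these 25 ran from -0.53 to 0.84 with a median of 0.31, and 0 of 25 were past 2-fold, where 0.898% of all genes were lower and 6.19% higher. Relative to machinery genes that median is -0.14, so its direction depends on the scaling, and relative to silent families 5 of the 25 are 2-fold higher. The SNORD gene lay below its containing gene in 26 of 35 pairs, by 1 or more in 11 of them. The median of SNORD gene minus containing gene was -0.61, a value that no constant scaling between the arrays moves. The median of all genes, -0.047, also lay below that of the containing genes, and the same count was not made for other genes. A probe inside an intron may read the unspliced host as well as the mature SNORD RNA, and the arrays cannot tell them apart. Across the 35 pairs, some of which share containing genes, r was 0.17 and rho 0.11.

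The difference of the SNORD gene minus that of its containing gene was -3.16 for SNORD12C, whose host ZFAS1 itself stood at -0.53. For SNORD43, a small-subunit guide, it was -2.56 against RPL3 (0.31), and for SNORD54 it was -2.49 against RPS20 (-0.22). It was -2.48 for SNORD14E against the chaperone gene HSPA8 (0.40). It was -1.86 for SNORD53 against WDR43 (0.36), whose protein acts in the small-subunit processome. In contrast, it was 1.99 for SNORD4A against RPL23A (-0.30) and 1.06 for SNORD49A against SNHG29 (-0.27), the 2 pairs in which the SNORD gene was 1 or more above.

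By kind of host, 48 members lay in protein-coding genes, with a median of -0.33, 11 lower and 2 higher. A further 19 lay in long non-coding RNA genes, with a median of -0.48, 9 lower and 0 higher. Ribosomal protein genes alone, 10 in number, held 21 members with a median of -0.31, of which 6 were lower and 2 higher. By the same rule 0.898% of all genes were lower and 6.19% higher. Relative to silent families the median in ribosomal protein genes turns to 0.027, that in protein-coding genes comes to about 0, and that in long non-coding RNA genes is -0.15.

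**Figure D3:**
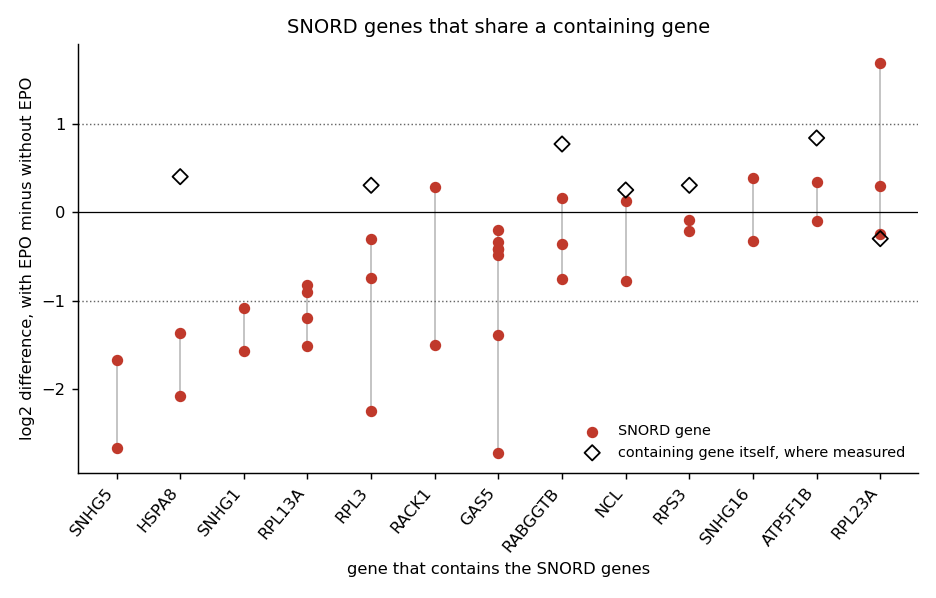
Log2 difference (with EPO minus without EPO, 1 array each) of SNORD genes grouped by the gene that contains them, for 13 of the containing genes with 2 or more members, with red points for SNORD genes and open diamonds for the containing gene where it was measured. RPL23A holds the highest point, SNORD4A at 1.69, and the diamonds stay within 2-fold.

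SNORD genes inside the same containing gene often differed from each other in their measured values. In 14 containing genes with 2 or more members, which hold 40 members, all members lay below 0 in 7, members lay on both sides of 0 in the other 7, and 0 had all members above 0. These signs depend on the scaling: relative to silent families 4 lay all below, 6 on both sides and 4 all above, and relative to machinery genes 12 lay all below and 2 on both sides. The median span from the lowest to the highest member was 0.91. With 1 probe per member and 1 array per group, that span has no error. It was not set beside the span of members from different containing genes. RPL23A was split, with SNORD4A at 1.69, SNORD4B at 0.30 and SNORD42A at -0.24. All 3 are small-subunit guides. In RACK1, a ribosomal scaffold gene, SNORD95 stood at -1.51 and SNORD96A at 0.29.

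Containing genes whose members all lay below 0 were led, by the median of their members, by SNHG5, with SNORD50B at -2.67 and SNORD50A at -1.67. GAS5, a non-coding RNA that accumulates when growth stops, held 7 members. Of these SNORD75 (-2.73) and SNORD74 (-1.396) were past 2-fold, and SNORD79, SNORD78, SNORD44, SNORD77 and SNORD81 lay between -0.48 and -0.20. RPL13A held SNORD32A (-1.51), SNORD35A (-1.19), SNORD34 (-0.90) and SNORD33 (-0.82), a span of 0.69. In RPL3 SNORD43 stood at -2.25, SNORD83B at -0.75 and SNORD83A at -0.31. RABGGTB, a prenyltransferase subunit gene at 0.77, held SNORD45A at -0.76, SNORD45C at -0.36 and SNORD45B at 0.16, and was 1 of the 7 genes with members on both sides. GAS5, SNHG5, RPL13A and RACK1 were not measured under a symbol of their own.

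Since an intronic SNORD RNA is made from the promoter of its host, the promoters of 4 hosts are shown, chosen after the values had been seen, from containing genes whose members all lay below 0 and included 1 or more past 2-fold. Each window runs from 250 bases before to 50 bases after the start of the gene, 5' to 3' on the strand of the gene, in RefSeq build GRCh38.p14: GAS5 at chr1:173868996-173869295 on the minus strand, RPL13A at chr19:49487358-49487657 on the plus strand, SNHG5 at chr6:85678684-85678983 on the minus strand and ZFAS1 at chr20:49278392-49278691 on the plus strand. Capitals mark TATAA, the core of a TATA box, and CTTTT, a pyrimidine run, both searched on both strands, where matches may overlap.
GAS5: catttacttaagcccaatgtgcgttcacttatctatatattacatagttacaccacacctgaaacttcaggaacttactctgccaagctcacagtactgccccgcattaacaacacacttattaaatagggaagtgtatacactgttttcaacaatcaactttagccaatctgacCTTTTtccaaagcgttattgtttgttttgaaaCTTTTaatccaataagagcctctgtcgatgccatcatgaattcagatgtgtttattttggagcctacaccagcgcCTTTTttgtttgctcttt
RPL13A: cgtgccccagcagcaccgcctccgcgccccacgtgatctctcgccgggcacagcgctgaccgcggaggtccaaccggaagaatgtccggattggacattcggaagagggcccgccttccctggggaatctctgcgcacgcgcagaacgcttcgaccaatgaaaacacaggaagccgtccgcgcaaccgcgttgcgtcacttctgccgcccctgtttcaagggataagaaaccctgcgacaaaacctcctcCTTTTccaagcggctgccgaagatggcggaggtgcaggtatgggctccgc
SNHG5: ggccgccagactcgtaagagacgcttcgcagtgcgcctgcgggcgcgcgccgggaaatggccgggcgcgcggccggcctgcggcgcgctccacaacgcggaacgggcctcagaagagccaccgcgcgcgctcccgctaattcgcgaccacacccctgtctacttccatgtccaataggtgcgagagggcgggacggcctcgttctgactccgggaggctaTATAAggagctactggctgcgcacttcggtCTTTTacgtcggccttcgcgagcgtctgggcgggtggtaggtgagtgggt
ZFAS1: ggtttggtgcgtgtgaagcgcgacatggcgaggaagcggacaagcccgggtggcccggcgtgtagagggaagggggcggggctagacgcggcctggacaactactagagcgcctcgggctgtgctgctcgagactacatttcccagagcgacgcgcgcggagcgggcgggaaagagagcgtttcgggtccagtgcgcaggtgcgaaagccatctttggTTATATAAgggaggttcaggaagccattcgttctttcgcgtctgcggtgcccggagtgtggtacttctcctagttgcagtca
TATAA was found in SNHG5 and ZFAS1 and not in GAS5 or RPL13A, and CTTTT in GAS5, RPL13A and SNHG5 and not in ZFAS1. Over all 35116 RefSeq promoters of this length, 20.4% hold TATAA and 48.9% hold CTTTT. Of 34 containing genes with a promoter in that table, 13 (38.2%) hold TATAA and 21 (61.8%) hold CTTTT. A match describes letters only.

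Grouped by the RNA they modify, guides of the small-subunit and of the large-subunit RNA both had more members 2-fold lower than 2-fold higher. The grouping is general knowledge and was written after the values had been seen. Of 17 guides of the small-subunit RNA, 5 (29.4%) were 2-fold lower and 1 (5.88%) higher, with a median of -0.41. Of 30 guides of the large-subunit RNA, 13 (43.3%) were lower and 1 (3.33%) higher, with a median of -0.60. Of all genes 0.898% were lower and 6.19% higher. Each higher share here rests on 1 gene, so it cannot be told apart from that of all genes. The 3 guides of the U6 spliceosomal RNA were within 2-fold, with SNORD94 at -0.63, SNORD8 at -0.16 and SNORD7 at 0.38. The other 19 genes were not assigned here, which does not mean that they have no ribosomal target. Their median was -0.34, and 2 of them (10.5%), SNORD54 and SNORD32A (which guides both subunits), were 2-fold lower. The shares of the 2 ribosomal groups thus depend on which genes were assigned.

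Of the RNAs that act in precursor processing, 3 were members. The U14 genes SNORD14E (-0.69 with EPO, 1.40 without EPO) and SNORD14C (-0.19 and 1.17) differed by -2.08 and -1.36, and both lie in HSPA8. U13, SNORD13, which has a gene of its own and guides acetylation of the small-subunit RNA, stood at -0.029 and 0.44, a difference of -0.47. The U13 pseudogenes SNORD13P3, SNORD13P1 and SNORD13P2 stood at -0.67, -0.098 and 0.60. They share sequence with SNORD13, so a probe may read more than its own gene.

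Gene length gave little order to the differences. The RefSeq length had a median of 75 nt in the 20 genes that were 2-fold lower and of 75 nt in the other 49. Across the 69 genes, difference and length had r = 0.17 and rho = 0.058.

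The imprinted copies formed a narrow band. Their differences ran from -0.45 to 0.092, and 30 of 46 lay within 0.1 of 0, where 3255 of all 18377 genes did. The interquartile range was 0.14, against 1.28 for the non-imprinted genes (8.87 times as wide), which were wider than most classes. That range was 0.67 for all genes, 0.41 for silent families and 0.35 for microRNA genes. As deposited, 32 of the 46 (69.6%) lay below 0, where 54.6% of all genes did. But 22 of the 46 lay below 0 with the median of all genes subtracted, 46 with that of machinery genes and 2 with that of silent families. The share of all genes below 0 was not counted under those scalings. The gap between the medians of the classes, -0.39, does not move with such scalings. The copies of a cluster share similar sequence and 1 transcript, so they are not independent of each other. Since the values give no level, copies that were not expressed and copies that did not change cannot be told apart.

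**Figure D4:**
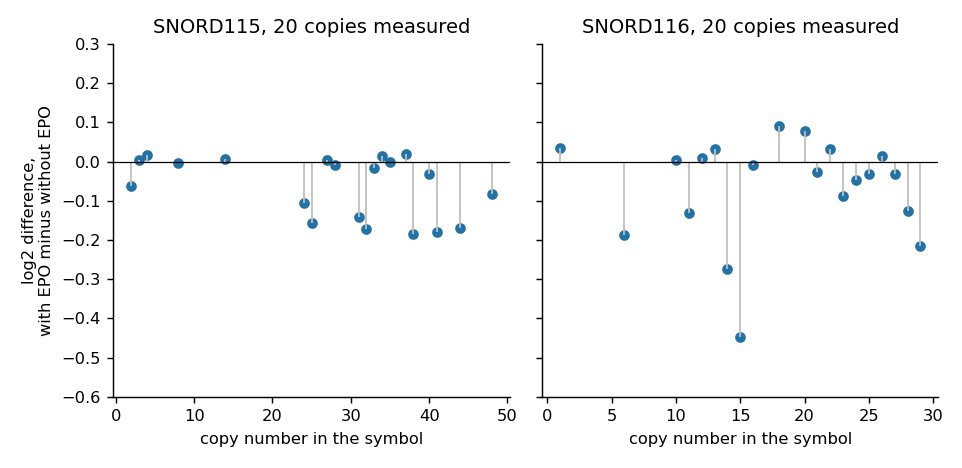
Log2 difference (with EPO minus without EPO, 1 array each) of the measured copies of SNORD115 and SNORD116 against the copy number in the gene symbol. SNORD116-15 stands lowest at -0.45, and no other copy of either cluster passes -0.27.

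SNORD116-15 was the lowest imprinted copy, with -0.45 with EPO and -0.0032 without EPO, a difference of -0.45. Here the array with EPO stood away from the baseline and the array without EPO lay on it. SNORD113-4 (0.011 and 0.40, difference -0.39), SNORD116-14 (-0.071 and 0.20, difference -0.27) and SNORD116-29 (-0.038 and 0.18, difference -0.22) followed. The highest copies were SNORD116-18 at 0.092, SNORD116-20 at 0.078, SNORD116-1 at 0.034 and SNORD116-22 at 0.033. All of these are far within 2-fold.

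By cluster, SNORD113, with copies 3 and 4 measured, stood at -0.21 and -0.39. The 4 copies of SNORD114 lay between -0.14 and -0.049. SNORD115, whose RNAs can pair with the serotonin receptor transcript HTR2C, ran from -0.18 to 0.018 with a median of -0.024 over 20 copies. SNORD116, the cluster whose loss is central to Prader-Willi syndrome, had a median of -0.029 over 20 copies. Its copies 10 to 24 (13 measured) had a median of -0.0089, copies 25 to 29 (5 measured) of -0.032, and copies 1 and 6, measured of copies 1 to 9, stood at 0.034 and -0.19. In SNORD115, 11 of the 14 measured copies from 25 to 48 lay below 0, and 3 of the 6 measured copies from 1 to 24 did.

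H/ACA RNAs and small nuclear RNAs were lower as well. Of all genes, whose median was -0.047, 0.898% were 2-fold lower and 6.19% higher. The H/ACA and Cajal body RNAs guide pseudouridylation or modify spliceosomal RNAs. Their median was -0.70 over 77 genes, with 21 (27.3%) at least 2-fold lower and 0 higher. That lower share is near the 29% of the non-imprinted SNORD genes. The small nuclear RNAs of the spliceosome had a median of -1.30 over 23 genes, with 14 (60.9%) lower and 0 higher. The 6 polymerase III RNAs were mixed, from -1.26 to 1.38, with 1 (16.7%) lower and 1 (16.7%) higher. MicroRNA genes had a median of -0.13 over 173 genes, with 5 (2.89%) lower and 1 (0.578%) higher. That median lies above the one of silent families, so its direction turns relative to them. Silent families had a median of -0.33, and cellular machinery genes of 0.45. What sets these class differences was not tested.

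**Figure D5:**
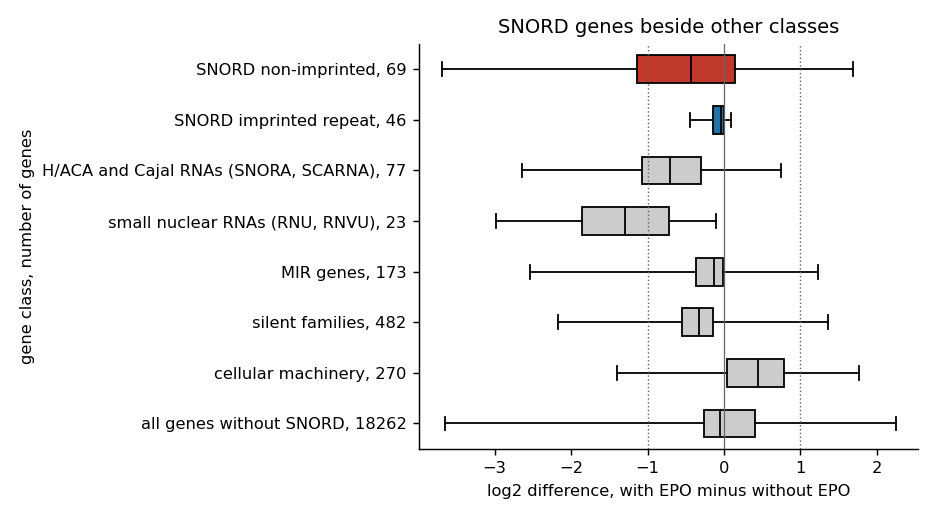
Log2 difference (with EPO minus without EPO, 1 array each) in the SNORD classes and in other gene classes, with the number of genes after each name, boxes from the lower to the upper quartile, a line at the median, whiskers to the lowest and highest gene and dotted lines at 2-fold. The box of the non-imprinted SNORD genes runs from -1.14 to 0.14, and that of the imprinted copies from -0.14 to 0.0051.

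The proteins of box C/D particles differed the other way as deposited. Of the 4 core proteins, 2 were measured under their own symbol: FBL, the methyltransferase, at 0.63 (0.18 with EPO, -0.45 without EPO) and NOP58 at 0.62 (0.14 and -0.48). Assembly and maturation factors had a median of 0.45 over 30 of 32 listed genes, with 4 (13.3%) at least 2-fold higher and 0 lower, led by the exonuclease XRN2 at 1.26, the export adaptor PHAX at 1.23 and the assembly factor ZNHIT6 at 1.10. Proteins of the small-subunit processome, which works with U3, had a median of 0.52 over 30 genes, with 6 (20.0%) higher and 0 lower, led by UTP15 at 1.33, UTP6 at 1.17 and UTP4 at 1.09. Of all genes 6.19% were 2-fold higher, and of cellular machinery genes 14.1% were, so the first share is that of machinery genes. Both medians lie close to that of cellular machinery genes, 0.45, and the first is just under it, so relative to those genes it is slightly below 0. Of the H/ACA core proteins, DKC1 stood at 1.03, NHP2 at 0.24, GAR1 at 0.049 and NOP10 at -0.26. Of 28 genes listed as hosts of small nucleolar RNAs, 7 were measured under their own symbol, 0 were past 2-fold, and the largest differences were SNHG17 at 0.62, ZFAS1 at -0.53 and MEG3 at -0.45.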

How the data were processed

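Values came from 1 whole-transcript array of each of 2 cultures. The authors deposited values centred per probe, read here as log2. The background correction, normalization, software, baseline and log base are not stated in the sources available here. Per the labels' protocols, RNA was labelled with whole-transcript kits. The number of arrays limits the precision.

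Of 28869 probes, 19310 carried exactly 1 symbol, 1752 several and 7807 none. RefSeq (GRCh38.p14) held 19279 of the 19310 under their Entrez ID. Probes of a gene were averaged, giving 18377 genes. SNORD genes, all matched, kept the platform symbol. Containing genes came from RefSeq positions without strand, although the same strand had been planned. No read-through or unnamed gene was used where another contained the gene, and of several the shortest was taken.

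No test was possible. Members and lists were chosen with earlier results of these data known. Named genes are the 6 lowest and 6 highest non-imprinted and the 4 lowest and 4 highest imprinted SNORD genes, those past 2-fold, processing RNAs, members of hosts with 3 or more, core proteins and up to 3 leading genes per list. Others were chosen after their values were seen. Of the containing genes, 1 is not reported here. Machinery (270) and silent (482) genes were defined by symbol. The counting was tested on simulated data. Python 3.11.15, NumPy 2.4.6, pandas 2.3.3 and SciPy 1.17.1 were used. Alternatives were other thresholds, scalings, probe rules and class limits.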

Additional observations from a re-analysis of the deposited data

Results flagged for a closer look

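Probes that name a SNORD gene with other genes were outside the comparisons, and several showed large differences. U3, the most abundant box C/D RNA and the organiser of the small-subunit processome, is read by 5 probes that each carry the symbols of 5 SNORD3 copies. Their median difference was -1.91, and each probe rounds to that value, so they act as 1 measurement. Of 6 probes that name SNHG1 with a SNORD gene, 4 were at least 2-fold lower, and the lowest, with SNORD25, stood at -2.37. The probe that names the ribosomal protein gene RPS3A with SNORD73A stood at 1.39. Of all 49 such probes, 14 were at least 2-fold lower and 1 higher with EPO, and the lower ones all name non-imprinted genes. With probes of the same names averaged, 10 of 37 were lower and 1 higher, where 0.898% of all genes were lower and 6.19% higher. Which of the named genes gave the signal cannot be told apart.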

How the results depend on the processing

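No paired analysis was possible because each group has 1 array. No result has a replicate, so any change of a median is given as a change. As reported, 20 non-imprinted genes were lower and 2 higher, the medians were -0.43 and -0.039, and the gap between them was -0.39. With a threshold of 1.5-fold, 31 non-imprinted genes were lower and 6 higher, and with 3-fold 9 and 1. The shares of all genes at 1.5-fold and 3-fold are not given here, so these counts cannot be set against a background. With the median of machinery genes subtracted, 31 were lower (5.68% of all genes) and 1 higher (0.756%), and the medians were -0.88 for non-imprinted and -0.49 for imprinted genes. With the median of silent families subtracted, 5 were higher (15.3% of all genes) and 16 lower (0.55%), and the medians were -0.093 and 0.29, the latter of the opposite sign. With the median of all genes subtracted they were -0.38 and 0.0077, again of the opposite sign for imprinted genes. With probes of several SNORD symbols added they were -0.41 and -0.032, and the gap was -0.38. By the mean they were -0.60 and -0.076, with a gap of -0.52. After the data had been seen, 3 more settings were tried. With every probe that names a SNORD gene, the medians were -0.47 and -0.048 and the gap -0.43. Without pseudogenes the non-imprinted median was -0.45 and the gap -0.41. With 1 median per containing gene, 10 of 43 were lower, 0 were higher, and the median was -0.41. The 46 imprinted genes had 0 past the threshold under every threshold and scaling tried. Taking the probe of smallest difference, keeping genes with 1 probe, or moving single-copy imprinted genes left every count and median as reported, since each member has 1 probe and none of those genes is a member.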

Other observations

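The order of SNORD genes along their host was looked at after the values had been seen, with probes that also name the host included and no test run. SNHG1, a non-coding host on chromosome 11, carries 8 measured SNORD genes, of which SNORD28 and SNORD30 are members. From the 5' end of SNHG1 the differences were -2.37 for SNORD25, -1.71 for SNORD26, -1.73 for SNORD27, -1.57 for SNORD28, -1.09 for SNORD29, -1.08 for SNORD30, 0.24 for SNORD31 and 0.48 for SNORD22, which has a role in precursor processing. The differences thus ran from low to high along the gene, apart from SNORD27. GAS5 was less even: SNORD74, SNORD75 and SNORD76, nearest its 5' end, stood at -1.396, -2.73 and -1.27, and the following 7 lay between -0.91 and -0.20. Of 11 containing genes with 2 or more members and a strand in the RefSeq promoter table, the SNORD gene nearest the 5' end was the lowest in 8 (in 7 with members alone) and lower than the one nearest the 3' end in 10 (9 with members alone). HSPA8, NCL, RACK1, RPS3 and SNHG5 had 2 measured SNORD genes each, so there both counts state the same fact. With members alone this also holds for SNHG1 and SNHG16. In RPS3 the values were close, with SNORD15A at -0.21 and SNORD15B at -0.092. In HSPA8 the order ran the other way, with SNORD14C at -1.36 before SNORD14E at -2.08, as it did with members alone in SNHG16, with SNORD1B at 0.39 before SNORD1A at -0.32. In GAS5 and RABGGTB the gene nearest the 5' end was not the lowest. No error can be given for this order with 1 array per group.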
